A study of Homo sapiens with 12 samples.

Results

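WNT signalling was followed through 10 of its genes in A375 cells, a human melanoma line, without, during and after exposure to inhibitors of the MAPK pathway. The genes were named as a group by their place in the pathway, with earlier results of these data known. They are the ligand WNT5A, the receptors ROR1, ROR2 and FZD7, the secreted inhibitor DKK1, the transducer CTNNB1 (β-catenin), the transcription factors LEF1, TCF7L1 and TCF7L2, and the feedback gene AXIN2. They are 10 of the 44659 genes listed in the count table. Of the 10, 8 had a mean normalized count of at least 10 over the 12 libraries and were tested with the 15916 genes that passed this filter. ROR2 and TCF7L1 did not pass it and are described by their counts.

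WNT proteins are secreted ligands that bind frizzled receptors. In the canonical branch, binding stops a cytoplasmic destruction complex (built on AXIN and APC proteins) from marking β-catenin for degradation, so that β-catenin enters the nucleus and acts with transcription factors of the TCF/LEF family. In the non-canonical branch, ligands such as WNT5A act through ROR receptors and frizzleds on cell polarity and movement without β-catenin. In melanoma, WNT5A and ROR2 are known for invasive cells, and LEF1 and β-catenin for the melanocytic programme.

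There were 4 groups of 3 libraries each. CC, the control cells, had 72 h of DMSO. TC had 72 h of MAPKi, which is 500 nM vemurafenib against BRAF and 500 nM cobimetinib against MEK, and were harvested at its end. Persister cells (PC) received the same MAPKi and then had 2 days without drug, and recovered cells (RC) had 9 days without drug. The groups come from 1 line, PC and RC have no DMSO control of their own age, and cells were passaged where needed, so that group and harvest cannot be told apart. The labels name the RNA cytoplasmic, from a cleared detergent lysate, whereas the study's methods speak of total RNA, so that the part of nuclear RNA in these libraries is not known.

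Library totals ran from 37773389 to 55567097 counts. Levels are CPM, counts scaled to a common library size with TMM factors, and levels of different genes are compared as RPKM, which also divides by exon length. A gene was called when its Benjamini-Hochberg adjusted p in edgeR's quasi-likelihood test was under 0.05, and "beyond 1.5-fold" means an adjusted p of at most 0.05 against a 1.5-fold change. The labels do not say whether replicates were separate cultures, so p-values measure the spread between these libraries. TC, PC and RC are compared with the same CC libraries. In such bulk RNA, fewer cells that express a gene and less RNA per cell cannot be told apart. Of 8 melanocytic markers, 7 in CC and RC and 8 in TC and PC reached 1 CPM, with summed levels of 1665 to 1892 CPM in CC, 7093 to 10309 in TC, 3496 to 5107 in PC and 1528 to 1594 in RC. DCT carried most of the rise of that sum (407 CPM on average in CC, 6452 in TC). SOX10 went from 659 to 1046 CPM, PMEL from 70.1 to 615 and TYRP1 from 3.64 to 20.3. TYR went from 2.09 to 4.87 CPM and MLANA from 0.545 to 1.51. The markers with a lower mean in TC were S100B (264 to 140 CPM) and MITF (362 to 321). The endothelial sum was 9.61 to 12.1 CPM in CC, 1.73 to 2.41 in TC and 1.67 to 1.87 in PC. In RC it was 5.01 to 6.40. Of its 4 markers, 2 reached 1 CPM in CC and RC and 1 in TC and PC. KDR went from 6.42 CPM on average in CC to 0.0344 in TC, and VWF from 4.11 to 2.07. CDH5 was at 0 and PECAM1 at most 0.0158 CPM on average. The fibroblast sum was 35.5 to 46.4 CPM in CC, 21.6 to 26.2 in TC and 19.1 to 20.3 in PC. In RC it was 25.5 to 28.7. Of its 5 markers, 3 reached 1 CPM in each group. LUM went from 27.8 CPM on average in CC to 6.75 in TC, PDGFRA from 3.79 to 1.25 and PDGFRB from 9.96 to 15.9. DCN was at most 0.0424 and COL1A2 at most 0.0233 CPM on average. The leukocyte sum was at most 2.01 CPM, with 1 of 5 markers at 1 CPM in CC and 0 in the other groups. Of the 6 keratinocyte markers, 1 reached 1 CPM in CC, TC and RC (KRT10) and 2 in PC, KRT1 and DSG3 were at 0, and KRT10 held most of the sum, which was 40.7 to 52.2 CPM in CC, 88.6 to 94.6 in TC, 95.2 to 104 in PC and 56.0 to 61.4 in RC. The part of these markers in the results was not tested.

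Promoter sequences are shown for the genes whose levels moved most among the members with an entry in RefSeq's promoter table (build GRCh38.p14), each from 250 bases before to 50 bases after an annotated start and in the direction of the gene. WNT5A (first of its 2 windows, minus strand, chr3:55487257-55487556), CTNNB1 (plus strand, chr3:41199255-41199554) and LEF1 (minus strand, chr4:108166252-108166551) were low in TC and PC, while DKK1 (plus strand, chr10:52314031-52314330) was high in PC. The table held windows for 8 of the 10 members. Those of WNT5A, CTNNB1 and LEF1 lie inside the gene bounds given below, so that the outermost starts of these genes were neither shown nor searched. Capitals mark TCF/LEF words.
WNT5A: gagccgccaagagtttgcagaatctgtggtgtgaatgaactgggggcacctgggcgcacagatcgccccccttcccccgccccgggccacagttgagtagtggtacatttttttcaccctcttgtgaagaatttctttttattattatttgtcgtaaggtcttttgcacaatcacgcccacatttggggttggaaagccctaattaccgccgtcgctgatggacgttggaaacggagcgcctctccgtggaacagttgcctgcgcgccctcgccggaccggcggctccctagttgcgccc
CTNNB1: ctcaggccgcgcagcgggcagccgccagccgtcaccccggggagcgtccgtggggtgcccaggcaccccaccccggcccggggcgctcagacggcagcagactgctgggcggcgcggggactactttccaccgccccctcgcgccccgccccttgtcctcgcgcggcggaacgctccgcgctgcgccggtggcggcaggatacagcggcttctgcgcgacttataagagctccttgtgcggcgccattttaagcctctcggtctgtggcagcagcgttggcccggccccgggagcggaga
LEF1: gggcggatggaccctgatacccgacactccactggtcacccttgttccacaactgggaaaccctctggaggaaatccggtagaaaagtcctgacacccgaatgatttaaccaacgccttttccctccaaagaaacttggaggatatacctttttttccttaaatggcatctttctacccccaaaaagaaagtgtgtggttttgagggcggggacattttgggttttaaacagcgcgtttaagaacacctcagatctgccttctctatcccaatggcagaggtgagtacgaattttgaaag
DKK1: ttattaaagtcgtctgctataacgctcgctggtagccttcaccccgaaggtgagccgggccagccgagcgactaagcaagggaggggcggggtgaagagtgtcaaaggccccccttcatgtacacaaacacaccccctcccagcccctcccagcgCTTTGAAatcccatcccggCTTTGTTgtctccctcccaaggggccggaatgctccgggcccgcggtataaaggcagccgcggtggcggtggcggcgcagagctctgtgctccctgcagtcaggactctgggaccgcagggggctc

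The windows were searched on both strands for TCF/LEF words (CTTTGAT and the forms of it that end with AA, with TT or with TA), for the AP-1 word TGACTCA (or the form with a central G) and for the ETS word CCGGAAG. AP-1 and ETS factors act downstream of the MAPK pathway. The words of the different motifs do not overlap each other. The DKK1 window held 2 TCF/LEF words, CTTTGAA starting 95 bases and CTTTGTT starting 76 bases before the start. Of the other members, 1 of the 3 windows of TCF7L2 (chr10:113126383-113126682, plus strand) held CTTTGTT, starting 133 bases before the start. No AP-1 or ETS word lay in any window of the members. Among 35116 promoters of this length, 13.8% held a TCF/LEF word, 4.95% the AP-1 word and 10.3% the ETS word. A match in letters is not a binding site, and its absence here says nothing of these factors.

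The 10 genes differed widely in level. In CC, CTNNB1 stood at 62.5 ± 2.6 RPKM (SD, n = 3), FZD7 at 26.4 ± 6.1 and LEF1 at 10.9 ± 0.58. TCF7L2 followed at 2.75 ± 0.23 RPKM. ROR1 at 0.758 ± 0.034, AXIN2 at 0.542 ± 0.092, WNT5A at 0.440 ± 0.0053 and DKK1 at 0.229 ± 0.19 RPKM lay under 1 RPKM. The 3-library ranges of neighbours in this order did not meet, except those of AXIN2 and WNT5A. ROR2 and TCF7L1 stood at 0.0104 ± 0.0025 and 0.00170 ± 0.0029 RPKM.

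**Figure D1:**
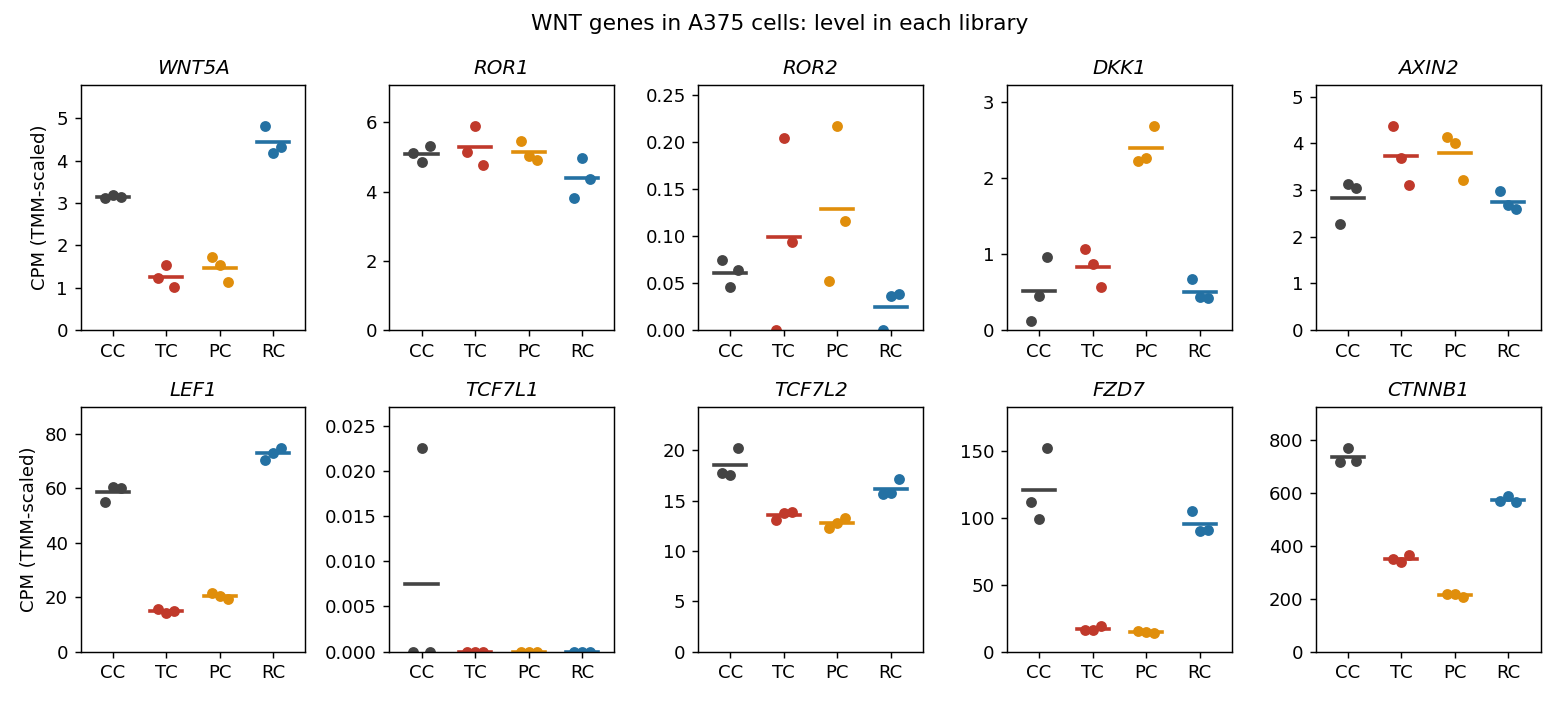
Level of each of the 10 WNT genes in CPM (linear axis from 0, one scale per gene) in the 3 libraries (points) of each group, with the group mean (bar). LEF1, FZD7, CTNNB1 and WNT5A are low in TC and PC and high in CC and RC, DKK1 is highest in PC (2.22 to 2.68 CPM), and ROR1 stays between 3.82 and 5.90 CPM.

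After 72 h of MAPKi, 5 of the 8 tested members were lower than in CC and 0 were higher. WNT5A, LEF1, TCF7L2, FZD7 and CTNNB1 fell. The background is wide, since 67.9% of all tested genes were called in this comparison (33.2% higher, 34.7% lower). Beyond 1.5-fold, 4 members were lower (all 5 but TCF7L2), against 35.4% of all genes in either direction (16.1% higher, 19.3% lower). The median log2 fold change of the 8 members was -0.76, and that of all tested genes was -0.02. In PC, the same 5 were lower than in CC and DKK1 was higher, against 69.1% of all genes called in either direction (33.2% higher, 35.9% lower). Beyond 1.5-fold there were 4 lower and 1 higher, against 37.1% of all genes (17.2% higher, 19.9% lower). In RC, LEF1 was higher and CTNNB1 lower than in CC, which is 2 of 8, against 37.3% of all genes (18.2% higher, 19.1% lower). No member differed from CC beyond 1.5-fold in RC, where 3.87% of all genes did (1.35% higher, 2.52% lower).

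**Figure D2:**
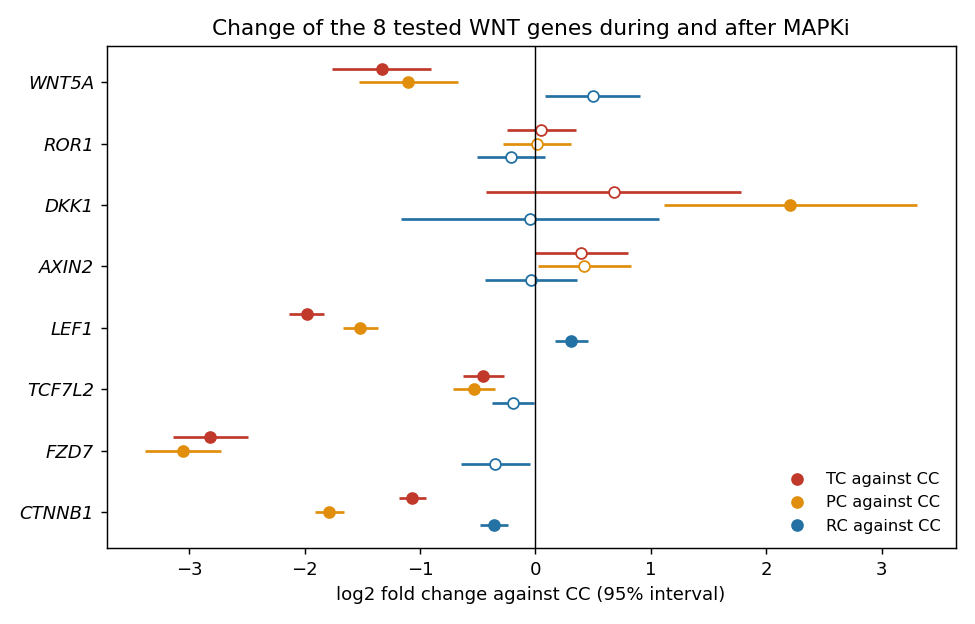
Log2 fold change against CC of the 8 tested members in TC, PC and RC, with 95% confidence intervals as bars, where filled points were called at an adjusted p under 0.05 and open points were not. FZD7 has the lowest value in TC (-2.82) and in PC (-3.05), and DKK1 is the 1 member called above 0 in PC (2.21).

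WNT5A, the ligand, lies on the minus strand (chr3:55465715-55490539, GRCh38). The CC libraries held 3.11, 3.19 and 3.15 CPM (126 to 149 counts), the TC libraries 1.22, 1.53 and 1.01, the PC libraries 1.73, 1.54 and 1.13, and the RC libraries 4.83, 4.18 and 4.31. All TC and PC libraries lay below CC, and all RC libraries lay above it. The log2 fold change was -1.33 (SE 0.20, adjusted p = 7.16e-05, edgeR) in TC and -1.10 (SE 0.20, adjusted p = 0.000294) in PC, so that 39.7% and 46.6% of the CC level was left. TC and PC overlapped, with a log2 difference of 0.23 and a 95% interval of -0.20 to 0.67. From PC to RC it rose 3.02-fold (log2 1.60, SE 0.20, adjusted p = 1.34e-05). In RC it was 1.41-fold the CC level, which missed the threshold (adjusted p = 0.0592). It passed in 4 of 18 alternatives (adjusted p over all 18 from 0.0267 to 0.163).

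ROR1 and ROR2 are receptor tyrosine kinase-like receptors of WNT5A. ROR1 (chr1:63774017-64181498) was the 1 tested member called in none of the 5 comparisons. The CC libraries held 5.11, 4.86 and 5.31 CPM, the TC libraries 5.16, 5.90 and 4.77, the PC libraries 5.47, 5.04 and 4.90, and the RC libraries 3.82, 4.98 and 4.37. The groups overlapped in each comparison. The log2 fold change against CC was 0.05 (95% interval -0.25 to 0.35) in TC, 0.01 (-0.28 to 0.31) in PC and -0.21 (-0.51 to 0.08) in RC. These intervals left out a change of 1.5-fold in either direction. ROR2 (chr9:91563091-91950228) had 3, 2 and 3 counts in the CC libraries, 0, 8 and 5 in the TC libraries, 2, 10 and 5 in the PC libraries, and 0, 2 and 2 in the RC libraries. These are at most 0.217 CPM, and 3 counts, the limit that a count of 0 allows, were up to 0.0785 CPM (counting error only). When genes with lower counts were kept, ROR2 gave a log2 fold change of 0.70 in TC (adjusted p = 0.61), 1.07 in PC (adjusted p = 0.40) and -1.13 in RC (adjusted p = 0.54), so that no difference was detectable at this depth.

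FZD7, a frizzled receptor (chr2:202033855-202038441, plus strand), had the lowest ratio to CC of the tested members in TC and in PC. Its CC libraries held 112, 98.9 and 152 CPM, the TC libraries 16.1, 16.2 and 19.2, the PC libraries 15.7, 14.4 and 13.8, and the RC libraries 105, 90.1 and 90.5. TC and PC lay far below the CC libraries, while RC overlapped CC. FZD7 was 7.04-fold lower in TC (log2 -2.82, SE 0.15, adjusted p = 8.72e-09) and 8.28-fold lower in PC (log2 -3.05, SE 0.15, adjusted p = 5.00e-09). The 3 PC libraries lay below the 3 TC libraries, with a log2 difference of -0.23 that was not called (adjusted p = 0.279). From PC to RC it rose 6.51-fold (log2 2.70, SE 0.15, adjusted p = 1.12e-08). RC held 78.6% of the CC level (log2 -0.35, adjusted p = 0.066). That value depends on the CC libraries, since it was -0.47 and called without CC replicate 2 (adjusted p = 0.0127), and -0.14 without CC replicate 3.

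The make-up of the frizzled family differed between the groups. This description was added after the values were seen and carries no test. The summed level of the 10 frizzled genes was 73.2 ± 9.20 RPKM in CC, 52.2 ± 8.50 in TC, 86.6 ± 6.66 in PC and 61.5 ± 4.44 in RC. FZD7 made up 33.1% to 39.9% of that sum in CC, 6.82% to 7.87% in TC, 3.19% to 4.22% in PC and 33.4% to 34.4% in RC. FZD1, another member of the family, made up 9.37% to 10.8% in CC, 24.5% to 37.1% in TC, 59.7% to 65.2% in PC and 11.6% to 12.6% in RC. FZD6 held 34.3% to 35.6% in CC, 30.3% to 36.4% in TC, 14.1% to 15.8% in PC and 27.0% to 29.6% in RC. FZD7 and FZD6 were thus the most abundant frizzleds in CC. In TC these were FZD6 and FZD1 (means of 17.4 and 16.2 RPKM), and FZD1 was the most abundant in PC. FZD1 itself rose from 49.9 ± 6.2 CPM in CC to 112 ± 41 in TC (log2 1.16, SE 0.21, adjusted p = 0.000409) and 371 ± 46 in PC (log2 2.89, SE 0.23, adjusted p = 2.39e-07). Between TC and PC it rose a further 3.32-fold (adjusted p = 0.000142), and in RC it stood at 50.9 ± 6.1 CPM (log2 0.03 against CC, 95% interval -0.44 to 0.49).

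**Figure D3:**
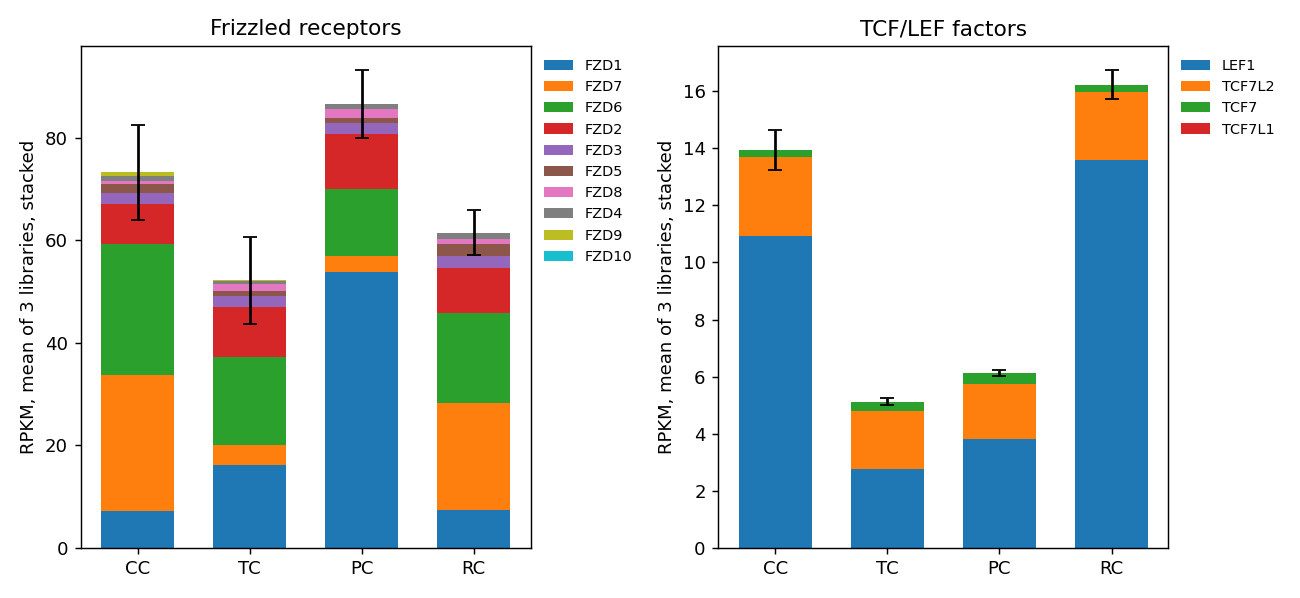
Mean RPKM of each frizzled receptor (left) and each TCF/LEF factor (right), stacked per group of 3 libraries, with the SD of the sum as a bar. FZD7 makes up 35.7% of the frizzled sum in CC and 3.71% in PC while FZD1 makes up 9.91% and 62.0%, and LEF1 makes up 78.4% of the TCF/LEF sum in CC, 54.0% in TC and 83.6% in RC.

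DKK1, a secreted inhibitor that binds the LRP co-receptors of WNT, lies on the plus strand (chr10:52314281-52318042) and is itself a target of β-catenin. It had 5, 20 and 45 counts in CC, or 0.123, 0.452 and 0.952 CPM. The TC libraries held 1.06, 0.869 and 0.560 CPM, the PC libraries 2.22, 2.26 and 2.68, and the RC libraries 0.665, 0.427 and 0.416. The CC libraries spread widely and overlapped TC and RC, while all 3 PC libraries lay above every other library. DKK1 was 4.62-fold higher in PC than in CC (log2 2.21, SE 0.50, adjusted p = 0.00182) and passed in all 18 alternatives (log2 1.76 to 3.04). It was 4.77-fold lower in RC than in PC (log2 -2.25, SE 0.50, adjusted p = 0.00156). The 2.89-fold difference of PC from TC was called (log2 1.53, SE 0.49, adjusted p = 0.0381). That call was lost in 9 of 18 alternatives, among them each fit that left out a TC or PC library (adjusted p over all 18 from 0.00467 to 0.116). In TC the log2 fold change was 0.68 (SE 0.51, adjusted p = 0.252). Without CC replicate 3, the library with the most DKK1, it was 1.502 and called (adjusted p = 0.0149). At this depth the counts of DKK1 leave wide errors, and 10.2% of its exon bases overlap PRKG1-AS1 on the other strand. PRKG1-AS1 had 0 to 4 counts per library. Whether the counting used strand is not stated, so that reads of a gene and its antisense partner cannot be told apart.

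CTNNB1, which encodes β-catenin (chr3:41194741-41260096, plus strand), had the highest level of the 10 in each group. Its level was 716, 770 and 717 CPM in the CC libraries, 349, 340 and 364 in the TC libraries, 217, 217 and 206 in the PC libraries, and 567, 587 and 565 in the RC libraries. None of the 4 groups overlapped another, and the order CC, RC, TC, PC held in each library. It fell 2.09-fold in TC (log2 -1.07, SE 0.05, adjusted p = 7.07e-09) and 3.45-fold in PC (log2 -1.79, SE 0.06, adjusted p = 1.49e-10). It was the 1 member called lower in PC than in TC, at 60.7% of the TC level (log2 -0.72, SE 0.05, adjusted p = 4.01e-06). Against the 1.5-fold threshold this further fall was not called (adjusted p = 0.0875). It rose 2.69-fold from PC to RC (log2 1.43, SE 0.06, adjusted p = 7.64e-10). In RC it held 78.0% of the CC level (log2 -0.36, SE 0.05, adjusted p = 0.000407). The RNA level does not measure the β-catenin protein, whose stability the pathway controls.

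LEF1, a TCF/LEF factor that binds DNA with β-catenin (chr4:108047545-108168956, minus strand), stood at 55.1, 60.7 and 60.2 CPM in CC. TC held 15.7, 14.0 and 14.8 CPM, PC 21.5, 20.6 and 19.4, and RC 70.4, 73.0 and 75.0. None of the groups overlapped, and RC was the highest. LEF1 fell 3.95-fold in TC (log2 -1.98, SE 0.07, adjusted p = 3.74e-10) and was 2.86-fold below CC in PC (log2 -1.52, SE 0.07, adjusted p = 2.47e-09). PC lay 1.38-fold above TC (log2 0.47, SE 0.07, adjusted p = 0.000476). From PC to RC it rose 3.55-fold (log2 1.83, SE 0.07, adjusted p = 5.93e-10), and it ended 1.24-fold above CC (log2 0.31, SE 0.07, adjusted p = 0.00328). LEF1 was the 1 member called higher in RC than in CC, and that rise was not beyond 1.5-fold.

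The antisense RNA LEF1-AS1, which shares 279 bases (5.20%) of the LEF1 exons on the other strand, stood at 0.802 ± 0.24 CPM in CC, 0.217 ± 0.087 in TC, 0.351 ± 0.057 in PC and 1.08 ± 0.21 in RC. It was 3.59-fold lower in TC than in CC (log2 -1.84, SE 0.35, adjusted p = 0.000504). It was 3.05-fold higher in RC than in PC (adjusted p = 0.000912). Its group means had the same order as those of LEF1. Counts of the pair cannot be told apart where the exons overlap if strand was not used. ROR1-AS1 and TCF7L1-IT1, the other entries named after a member, were at or near 0.

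TCF7L2 (chr10:112950247-113167678, plus strand) encodes TCF4, another TCF/LEF factor. Its level was 17.7, 17.6 and 20.3 CPM in the CC libraries, 13.1, 13.8 and 13.9 in the TC libraries, 12.3, 12.8 and 13.3 in the PC libraries, and 15.7, 15.8 and 17.2 in the RC libraries. TC, PC and RC all lay below the CC libraries. The log2 fold change was -0.45 (SE 0.08, adjusted p = 0.000411) in TC, -0.53 (SE 0.08, adjusted p = 0.000101) in PC and -0.19 (SE 0.08, adjusted p = 0.0853) in RC. The first pair was called and the last was not, and none passed the 1.5-fold test. It rose 1.27-fold from PC to RC (log2 0.34, SE 0.08, adjusted p = 0.00292). TCF7L1 (chr2:85133392-85310387), a TCF/LEF factor known mainly as a repressor, had 1 count in CC replicate 2 and 0 in the other 11 libraries.

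LEF1 took a smaller part of the TCF/LEF RNA in TC and PC than in CC, which is a description added after the values were seen and carries no test. The summed RPKM of LEF1, TCF7, TCF7L1 and TCF7L2 was 14.0 ± 0.70 in CC, 5.12 ± 0.14 in TC, 6.13 ± 0.11 in PC and 16.2 ± 0.52 in RC. LEF1 held 77.3% to 79.9% of it in CC, 52.7% to 56.7% in TC, 60.2% to 64.1% in PC and 83.4% to 84.1% in RC. TCF7L2 held 18.5% to 20.7% in CC and 37.6% to 41.2% in TC.

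AXIN2, a scaffold of the destruction complex that β-catenin induces as negative feedback (chr17:65528563-65561648, minus strand), was not called in TC, PC or RC against CC. The CC libraries held 2.27, 3.14 and 3.05 CPM, the TC libraries 4.38, 3.68 and 3.11, the PC libraries 4.13, 4.02 and 3.21, and the RC libraries 2.98, 2.67 and 2.59. TC overlapped CC in 1 library, and the 3 PC libraries lay above CC. The log2 fold change was 0.40 in TC (SE 0.18, adjusted p = 0.0708) and 0.43 in PC (SE 0.18, adjusted p = 0.0555), so that AXIN2 was not called in either. The TC value was called without TC replicate 3 (log2 0.51, adjusted p = 0.0379). The PC value was called in 5 of 18 alternatives (adjusted p over all 18 from 0.0358 to 0.185). The log2 fold change of AXIN2 from PC to RC was -0.46 (SE 0.18, adjusted p = 0.0383). This call was lost in 7 of 18 alternatives (adjusted p over all 18 from 0.021 to 0.113). In RC it was close to CC, with a log2 fold change of -0.04 and a 95% interval of -0.44 to 0.36. In GENCODE v44 a same-strand transcript, ENSG00000266076, covers 25.3% of the AXIN2 exon bases. Whether the NCBI annotation used for counting holds it is not known, nor whether reads of AXIN2 were lost to it.

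From TC to PC, the step that removes the drug for 2 days, 3 of the 8 members were called: DKK1 and LEF1 rose and CTNNB1 fell, against 24.7% of all genes (12.2% higher, 12.5% lower). No member passed the 1.5-fold test there, where 3.48% of all genes did (2.33% higher, 1.15% lower). From PC to RC, 7 of 8 were called, against 69.8% of all genes (35.7% higher, 34.2% lower). WNT5A, LEF1, TCF7L2, FZD7 and CTNNB1 rose, and DKK1 and AXIN2 fell. Beyond 1.5-fold, 4 rose (all but TCF7L2) and DKK1 fell, against 38.7% of all genes (20.2% higher, 18.5% lower). The median log2 fold change of the members in this step was 0.88, and that of all tested genes was 0.01.

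Another 109 genes of the pathway in 8 lists were examined beside the members, of which 83 were tested. In TC, 34 were higher and 30 lower than in CC, which is 77.1% called against 67.9% of all tested genes (33.2% higher, 34.7% lower). The median log2 fold change of the 83 genes was 0.12. PC had 37 higher and 32 lower (83.1% called, against 69.1% of all tested genes). RC had 14 higher and 20 lower (41.0% against 37.3%). From TC to PC, 10 were higher and 9 lower (22.9% against 24.7%). From PC to RC, 30 were higher and 38 lower (81.9% against 69.8%). Called genes of these lists lay on both sides of 0 in TC. Of those higher, WNT4, WNT9A, WNT11, RSPO2, RSPO3 and DKK3 passed the count filter through TC and PC, where they are high. The counts per list in TC stand beside the same 67.9%. Within each list, the gene with the largest called rise and fall in TC is described below.

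**Figure D4:**
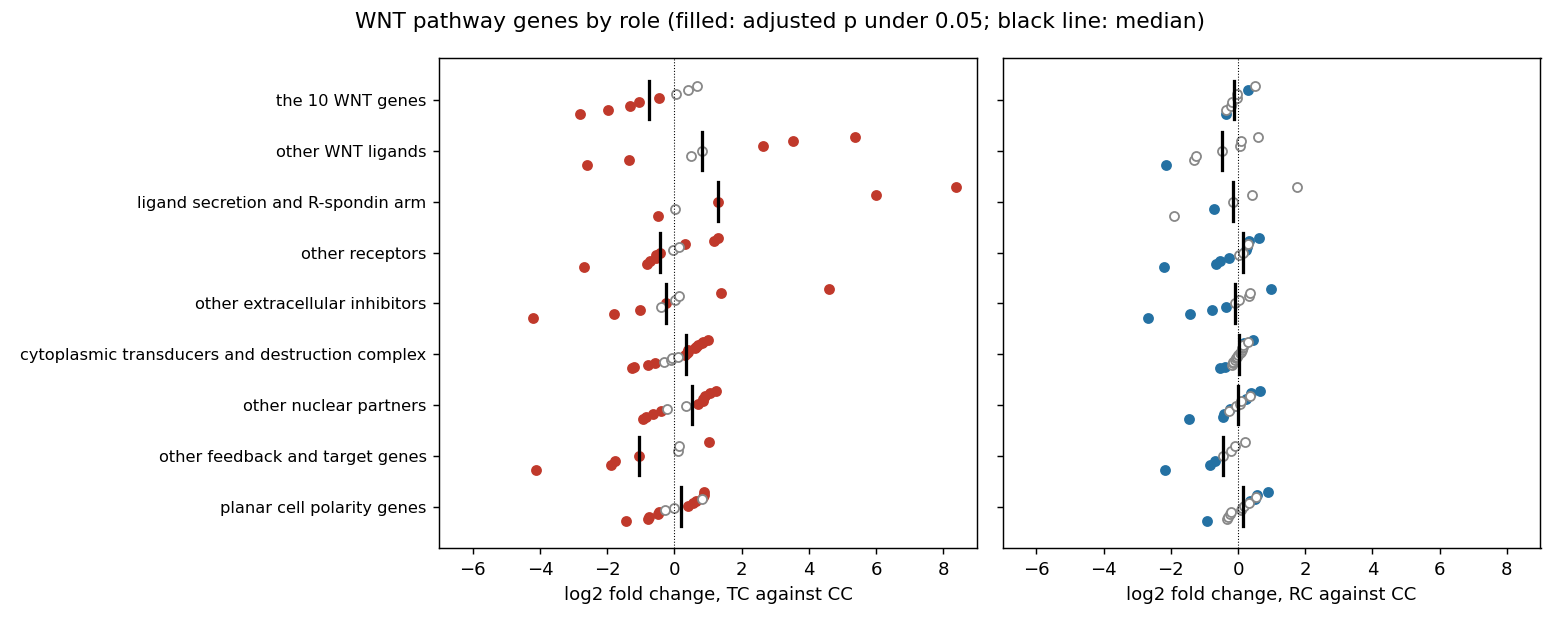
Log2 fold change in TC (left) and RC (right) against CC of the tested genes of each pathway list (points, filled where called at an adjusted p under 0.05), with the list median as a black line and the 8 tested of the 10 WNT genes in the first row. In TC the members' median is -0.76 and the ligands spread from -2.60 to 5.36, while the furthest points on the right (RSPO2 and RSPO3) are fitted values of genes at or near 0 counts in CC and are not sizes of change.

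Of 18 other WNT ligands, 7 were tested, and in TC 3 were higher and 2 lower. The 3 higher ones, WNT4, WNT9A and WNT11, averaged only 0.132, 0.0673 and 0.150 CPM in CC. They passed the count filter through TC and PC, where they are high, so that their call as higher was in part set by the filter. WNT10B, a canonical ligand and the most abundant in CC, went from 13.4 ± 1.2 CPM to 2.21 ± 0.35 in TC (log2 -2.60, SE 0.14, adjusted p = 1.05e-08), 2.99 ± 0.29 in PC and 13.9 ± 0.87 in RC. WNT4 went the other way, from 0.132 ± 0.093 CPM in CC to 5.66 ± 0.74 in TC (log2 5.36, SE 0.40, adjusted p = 1.57e-07), 6.30 ± 1.5 in PC and 0.0512 ± 0.026 in RC. WNT10B held 82.5% of the ligand RPKM in CC and 26.6% in TC, while WNT4 held 38.8% in TC. WNT5A kept a small part, 7.08% in CC, 5.58% in TC, 5.70% in PC and 9.72% in RC. In RC, WNT2B was lower than in CC (0.424 ± 0.11 against 1.85 ± 0.71 CPM, log2 -2.13, SE 0.33, adjusted p = 0.000476).

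In the ligand secretion and R-spondin arm, 5 of 8 genes were tested, and 3 were higher and 1 lower in TC. Among the 3 higher, RSPO2 and RSPO3 were at or near 0 counts in CC. They passed the count filter through TC and PC, so that their call as higher was in part set by the filter. LGR4, an R-spondin receptor, rose from 28.1 ± 0.69 CPM in CC to 69.3 ± 18 in TC (log2 1.30, adjusted p = 1.00e-05) and 138 ± 14 in PC (log2 2.30, adjusted p = 7.28e-08), and stood at 37.2 ± 3.2 in RC. PORCN, the enzyme that attaches a lipid to WNT proteins, was at 71.3% of CC in TC (adjusted p = 0.00201), and in RC it was at 61.4% (adjusted p = 0.000557). The R-spondin genes RSPO2 and RSPO3, chosen after their values were seen, had means of at most 1.33 CPM. RSPO2 had 0 counts in the CC libraries and 127 summed over TC, where single libraries ran from 0.104 to 1.36 CPM. RSPO3 had 1 count in CC and 86 in TC, a ratio of 86.5 with an exact 95% counting interval of 15.1 to 3454. That interval leaves out the spread between libraries.

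Of 13 other receptors, 11 were tested, and 3 were higher and 6 lower in TC. FZD8 rose from 2.21 ± 0.27 CPM to 5.38 ± 0.77 (log2 1.28, adjusted p = 0.000158). FZD9 fell from 1.57 ± 0.36 to 0.244 ± 0.17 CPM (log2 -2.69, SE 0.58, adjusted p = 0.00125) and remained lower in RC, at 0.341 ± 0.12 CPM (log2 -2.19, adjusted p = 0.00855). The co-receptor LRP6 is listed as more than one entry, with 0 to 4 counts under its own name and 32 to 140 under a numbered copy, and its level is uncertain.

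Of 16 other extracellular inhibitors, 9 were tested, and 2 were higher and 4 lower in TC. SFRP1, a secreted protein that binds WNT ligands, was 18.6-fold lower, at 276 ± 23 CPM in CC and 14.8 ± 4.4 in TC (log2 -4.22, SE 0.19, adjusted p = 1.87e-09). It stood at 21.3 ± 2.6 in PC and at 162 ± 14 in RC, which was still 58.6% of CC (adjusted p = 0.00298). DKK3, of the same gene family as DKK1, had 6 counts summed over CC, 160 over TC and 206 over PC. The ratio of these summed counts was 26.8 in TC with an exact 95% counting interval of 12.05 to 74.1, and 35.6 in PC with 16.1 to 98.0. Such intervals leave out the spread between libraries. The edgeR fit, a separate estimate, gave 24.4-fold in TC and 33.5-fold in PC (adjusted p = 3.41e-05 and 1.38e-05). DKK3 passed the count filter through TC and PC, so that its call as higher was in part set by the filter. TRABD2B, a protease that inactivates WNT proteins, was higher in RC than in CC (16.4 ± 1.8 against 8.29 ± 0.75 CPM, adjusted p = 0.00912).

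Of the 18 cytoplasmic transducers and destruction complex genes, all tested, 10 were higher and 4 lower in TC. APC2, a relative of APC, rose from 33.9 ± 3.5 to 68.3 ± 0.64 CPM (log2 1.01, SE 0.07, adjusted p = 8.74e-08). TNKS, a tankyrase that marks AXIN proteins for degradation, was lower (17.8 ± 2.5 against 7.47 ± 0.65 CPM, log2 -1.25, adjusted p = 0.00476), but a second entry of TNKS held 400 to 1004 counts per library, so that its total is uncertain. From TC to PC, 0 of the 18 were called, against 24.7% of all tested genes.

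Of 12 other nuclear partners, all tested, 6 were higher and 4 lower in TC. BCL9, a co-activator that binds β-catenin, rose from 40.8 ± 4.5 CPM in CC to 96.3 ± 5.9 in TC (log2 1.24, SE 0.08, adjusted p = 4.93e-08). It stood at 103 ± 3.9 in PC and at 63.9 ± 2.0 in RC (log2 0.65 against CC, adjusted p = 0.000112). TLE4, a co-repressor of TCF/LEF factors, fell from 18.6 ± 4.0 to 9.76 ± 0.98 CPM in TC (log2 -0.93, adjusted p = 0.000135).

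Of 10 other feedback and target genes, 7 were tested, and 1 was higher and 4 lower in TC, with a median log2 fold change of -1.05. RNF43, a ubiquitin ligase that removes frizzled receptors from the cell surface, had 4.34 ± 0.76 CPM in CC and fell to 0.249 ± 0.055 in TC (log2 -4.12, SE 0.40, adjusted p = 1.93e-06) and 0.100 ± 0.097 in PC. In RC it stood at 3.21 ± 0.23 CPM, and the RC libraries (2.95 to 3.42) lay below the CC libraries (3.61 to 5.13). NOTUM, a secreted enzyme that removes the lipid of WNT proteins, rose from 0.711 ± 0.13 to 1.44 ± 0.32 CPM in TC (log2 1.02, SE 0.28, adjusted p = 0.00659) and 2.96 ± 0.87 in PC. In RC it was below CC, at 0.157 ± 0.042 CPM (log2 -2.17, adjusted p = 0.000384).

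Of the 14 planar cell polarity genes, all tested, 6 were higher and 5 lower in TC. VANGL2, a core polarity protein, rose from 19.2 ± 4.4 to 35.5 ± 1.9 CPM in TC (log2 0.89, adjusted p = 0.000125) and was below CC in RC, at 10.1 ± 0.98 (log2 -0.92, adjusted p = 0.000505). Its relative VANGL1 was above CC in RC (53.8 ± 2.5 against 29.1 ± 2.0 CPM, log2 0.89, adjusted p = 3.84e-05). DAAM2, a formin, fell from 228 ± 43 to 84.1 ± 6.1 CPM in TC (log2 -1.44, adjusted p = 3.07e-07) and stood at 291 ± 4.2 in RC (log2 0.35, adjusted p = 0.0274).

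Genes with the pattern most like a member were sought among the 11915 genes whose normalized counts averaged 100 or more, by Pearson's r of log2 CPM over the 12 libraries. The libraries fall into 4 groups, so that r mainly reflects the group means. LEF1 was most like the replication genes LIG1, PRIM1 and CHTF18 (r = 0.998 for each), and 986 genes reached 0.95. WNT5A was most like LSM11, GPR55 and SH3BP5 (r = 0.986 for each), and 397 genes reached 0.95. AXIN2 was most like FLG-AS1 (r = 0.915), CPEB2 (r = 0.915) and MEIS1 (r = 0.908), and 0 genes reached 0.95.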

How the data were processed

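RNA sequencing counts of 12 libraries (4 groups of 3, total 37773389 to 55567097 counts per library) were analysed. The deposited values are raw read counts per gene. Per the labels and the study's methods, the authors trimmed reads with fastp 0.20.1, aligned them to GRCh38.p13 with HISAT2 2.2.1 and counted reads on exons of the NCBI annotation with HTSeq 0.13.5. Strandedness and the treatment of reads with several alignments are not given in the sources used here. Splitting of reads between overlapping or duplicated entries can lower a gene's count.

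Genes whose normalized counts averaged 10 or more were fitted in edgeR 4.0.16 (R 4.3.3, TMM factors 0.965 to 1.02, one mean per group, 8 residual degrees of freedom) and tested two-sided with glmQLFTest, and with glmTreat for 1.5-fold, in 5 comparisons. Adjusted p-values cover all 15916 tested genes. SEs were derived from the F statistic. RPKM used exon lengths of GENCODE v44 (GRCh38), which also gave coordinates, and promoters came from RefSeq (GRCh38.p14). The procedure was tested on simulated data in which 200 of 15916 genes differed 4-fold between TC and CC. It called 172 of these in the right direction, and 10 of the 15716 unchanged genes. In the real TC comparison 67.9% of genes were called, and a shift as wide was not simulated. No pair of libraries in a group agreed within counting noise. Alternatives were DESeq2 1.42.0, other size factors, another filter, fewer groups, a replicate block and leaving out each library.

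The members and the pathway lists were chosen with earlier results of these data known. Besides the members, the text names the called gene with the largest rise and fall in TC in each list (mean of at least 1 CPM in 1 of the 2 groups), the 2 with the largest rise and fall in RC over all lists, antisense or intronic entries named after a member, and for WNT5A, AXIN2 and LEF1 the 3 most like genes. FZD1, RSPO2, RSPO3 and LRP6 were named after their values were seen.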

Additional observations from a re-analysis of the deposited data

How the results depend on the processing

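Of the 15 counts of called members and pathway genes, 14 stayed within 1.5 times their value in all 18 alternatives (normalization, filter, test, groups fitted, replicate block, leaving out each library). The exception was the count of members beyond 1.5-fold between PC and TC, which was 0 and ran from 0 to 1 when single libraries were left out (CTNNB1 without CC replicate 2). Directions turned only for values that were not called. When single libraries were left out, the log2 fold change of ROR1 ran from -0.037 to 0.119 in TC against CC (below 0 without TC replicate 2), from -0.035 to 0.056 in PC against CC (below 0 without PC replicate 1, -0.0207 without CC replicate 2), and from -0.107 to 0.049 in PC against TC (above 0 without TC replicate 2). DKK1 in RC against CC ran from -0.49 to 0.78, above 0 without RC replicate 2 (0.061), RC replicate 3 (0.075) or CC replicate 3 (0.78), and it was 0.00843 with the replicate block. AXIN2 in RC against CC ran from -0.172 to 0.045, above 0 without RC replicate 3 (0.0041), CC replicate 2 (0.045) or CC replicate 3 (0.024). AXIN2 in PC against TC ran from -0.089 to 0.165, below 0 without TC replicate 3 (-0.089), PC replicate 1 (-0.04) or PC replicate 2 (-0.019). The cause was not tested. Replicate numbers were not taken as pairs in the main fit. Same-numbered libraries share a number at the end of their column names, but the labels do not say what it stands for. Their deviations correlated at -0.047 to 0.202 (-0.174 to 0.059 between different numbers). Of 12 libraries, 10 correlated best with their own number, which with the column names is a hint of a shared part. With the replicate block, DKK1 from TC to PC had an adjusted p of 0.058 (edgeR), and no other member's call changed. Depth limits ROR2, TCF7L1 and DKK1, whose libraries held 0 to 10, 0 to 1 and 5 to 116 counts.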
